A study of Homo sapiens with 12 samples.

Results

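The 500 widest clusters of H3K27ac in SUIT2 cells were described, out of 17826 SUIT2 clusters built the same way. SUIT2, BxPC3 and Panc327 are human pancreatic ductal adenocarcinoma lines, all untreated and grown under standard conditions, and each gave 2 H3K27ac ChIP-seq libraries and 2 input libraries. SUIT2 is known to derive from a liver metastasis and BxPC3 from a primary pancreatic tumour. Whether the replicates are separate cultures is not stated in the labels, so each SD and p below covers only the spread among these libraries, which may be technical.

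H3K27ac is an acetylation of histone H3 that marks active promoters and active enhancers. Enhancers that lie close together and carry much of the mark over a long stretch are known as super-enhancers, and in many cell types they lie near genes that define the identity of the cell. The usual definition ranks stitched enhancers by their ChIP signal and leaves out promoters. The clusters described here were ranked by breadth and kept promoters, so they are super-enhancer-like in breadth alone.

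A called base is a base inside a peak of the deposited list of a library. A piece is an unbroken run of bases called in both SUIT2 libraries, and a cluster joins pieces separated by at most 12500 bp. The clusters were ranked by the bases their pieces cover, on chromosomes 1 to 22 and X, and the first 500 were kept. The members were thus chosen by their called bases in SUIT2, and their breadth, pieces and folds in SUIT2 are given as a description. Positions are on hg19, as in the deposited lists, and clusters are named by position and rank because no gene annotation of that build was used here.

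The 500 clusters were 2.80% of all SUIT2 clusters and held 11.3 Mb of the 57.4 Mb of called bases, or 19.8%. Called bases per cluster ran between 13.1 and 108 kb, with a median of 19.0 kb and quartiles of 15.0 and 25.5 kb. The span between the outer ends of a cluster had a median of 37.3 kb and reached 150 kb, and a median of 55.8% of a span was called. The curve of bases over rank had no step at the threshold. Ranks 498, 499 and 500 held 13142, 13116 and 13089 called bases, on chromosome 1 from 88259321 to 88274522, on chromosome 17 from 7737148 to 7762416 and on chromosome 8 from 37451177 to 37495495. The next 3 clusters, just outside, held 13063, 13049 and 13033, on chromosome X from 49004663 to 49057160, chromosome 14 from 105433287 to 105453033 and chromosome 16 from 119558 to 136481. With both axes scaled to 1, the curve passed a slope of 1 at 10.03 kb, which 826 clusters exceeded.

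**Figure D1:**
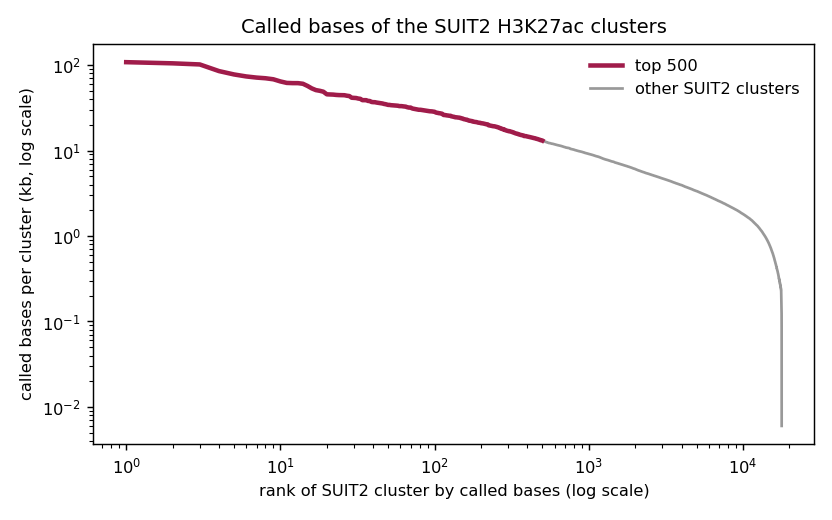
Called bases per SUIT2 cluster (kb, log scale) against rank by called bases (log scale). The top 500, the thick line, run down to 13.1 kb and the curve goes on without a step.

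The 3 widest clusters each held over 100 kb of called bases. Rank 1 lay on chromosome 17 from 57822766 to 57943348, with 108 kb called in 12 pieces, the widest of them 42.9 kb. Rank 2, on chromosome 15 from 67339941 to 67489858, held 105 kb in 22 pieces, and had both the most pieces and the most summits of the 500, 22 in replicate 1 and 26 in replicate 2. Rank 3, on chromosome 7 from 130516794 to 130647733, held 101.8 kb and the widest single piece of the 500, 61.3 kb.

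Rank 4 lay on chromosome 17 from 73662540 to 73782542, with 85.1 kb called in 12 pieces. Rank 5 lay on chromosome 11 from 65121428 to 65223359, with 77.7 kb in 11 pieces, and rank 34 followed 13.2 kb further along, from 65236537 to 65278778, just past the joining distance. Rank 6 on chromosome 15 from 60639914 to 60737426 held 73.7 kb, rank 7 on chromosome 16 from 69417732 to 69516665 held 71.4 kb, and rank 8 on chromosome 22 from 46402368 to 46523000 held 70.2 kb. Clusters of like breadth were built differently, with 21 pieces in rank 7 and 12 in rank 8.

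Rank 9 on chromosome 19 from 39109026 to 39227582 held 68.2 kb, rank 10 on chromosome 9 from 37997638 to 38070885 held 64.4 kb, and rank 11 on chromosome 10 from 114804293 to 114899304 held 61.9 kb. Chromosome 20 gave rank 12 from 50241923 to 50333366, rank 13 from 48227221 to 48342199 and rank 15 from 30249090 to 30312235, with 61.5, 61.5 and 57.0 kb. Rank 14 lay on chromosome 17 from 48705589 to 48800834 with 60.5 kb, and rank 16 on chromosome 2 from 113381222 to 113451817 with 53.3 kb in 4 pieces. The remaining clusters of the first 20 were rank 17 on chromosome 10 from 95183694 to 95263312 (51.0 kb), rank 18 on chromosome 9 from 21532340 to 21594180 (50.03 kb), rank 19 on chromosome 1 from 16460222 to 16516374 (48.8 kb) and rank 20 on chromosome 2 from 109541256 to 109606058 (45.5 kb).

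Most clusters were built from several pieces. The 500 clusters held 3299 pieces, with a median of 6 per cluster. There were 14 clusters of 1 piece, 139 of 2 to 4, 258 of 5 to 9 and 89 of at least 10. In 196 clusters the widest piece held at least 50% of the called bases, and over the 500 its median share was 44.4%. Among the clusters of 1 piece, the broadest was rank 97 on chromosome 1 from 151940755 to 151969415, an unbroken 28.7 kb. The 242 pieces of at least 10 kb were 7.34% of the pieces and 34.6% of the bases, whereas the 1175 pieces under 1 kb were 35.6% of the pieces and 5.03% of the bases.

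Since a piece needs a call in both SUIT2 libraries, their overlap within the spans is set in part by the way the clusters were built. Replicate 2 called 96.8% of the bases that replicate 1 called there, against 98.0% in the spans of all SUIT2 clusters, and replicate 1 called 93.3% of those of replicate 2, against 95.9%. Summits, the position of the highest pile-up in each deposited peak, numbered 3239 in replicate 1 and 3218 in replicate 2. Summit numbers were equal in 183 clusters. The summit of the peak with the highest fold lay within 250 bp of its counterpart in the other library in 366 clusters, or 73.2%, against 86.8% of all SUIT2 clusters, most of which have 1 piece. The median distance between them was 46.5 bp. In 75 clusters they lay over 10 kb apart. Rank 3 was an example, with 67625 bp between them.

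The fold of a peak, a deposited value of the authors, sets its pile-up against the local background. The highest fold in a cluster had a median of 93.1 in the list of replicate 1, which is percentile 93.6 there, and of 97.2 in that of replicate 2, percentile 94.0. It ran between 26.7 and 221 in replicate 1 and between 28.6 and 215 in replicate 2, and over all SUIT2 clusters its median was 35.7 and 37.0, at percentiles 64.7 and 66.4. The local background, recovered from the fold and −log10 p of each peak, had a median of 1.103 and 1.042 times the genome-wide level over the 500 clusters in replicates 1 and 2. Over all SUIT2 clusters it was 1.08 and 1.00 times. It was at least 2 times that level in both libraries in 1 of the 500 clusters, rank 179 on chromosome 12 from 57463111 to 57507112, or 0.200%, against 0.426% of all clusters. Since this background has the genome-wide level as its floor, a loss of DNA cannot be seen in it.

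Both other lines called under 50% of the bases chosen in SUIT2. BxPC3 replicates 1 and 2 called 38.7% and 41.5% of the called bases of the 500 clusters, a mean of 40.1% ± 1.96 (SD, n = 2). Panc327 replicates 1 and 2 called 23.2% and 31.3%, a mean of 27.2% ± 5.69 (SD, n = 2). Both BxPC3 libraries thus lay above both Panc327 libraries. BxPC3 minus Panc327 was 12.9 percentage points (exact permutation test, two-sided p = 0.333), and p = 0.333 is the smallest that 2 libraries against 2 can give. The lists behind these shares differed in length: the BxPC3 lists covered 48.7 and 54.6 Mb, the Panc327 lists 34.1 and 46.3 Mb, and the part of this in the difference was not tested. With 27776 peaks from each list the difference was 11.4 points. An equal number of peaks does not make the called bases equal, and the SUIT2 lists that build the clusters were cut too.

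Over all SUIT2 clusters the shares were higher, 52.7% and 56.1% in BxPC3 and 36.1% and 46.8% in Panc327. Choosing clusters for breadth in SUIT2 can lower these shares by itself, so the gap was not tested, and an uncalled base is not shown to lack the mark. The difference of BxPC3 minus Panc327 was 13.0 points there, close to that in the 500. Shares were lowest among the widest clusters. Ranks 1 to 100 were called over 33.8% and 36.3% of their bases in BxPC3 and 19.8% and 27.3% in Panc327. The last 100 of the 500 were called over 44.7% and 47.5% in BxPC3 and 29.5% and 38.6% in Panc327.

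**Figure D2:**
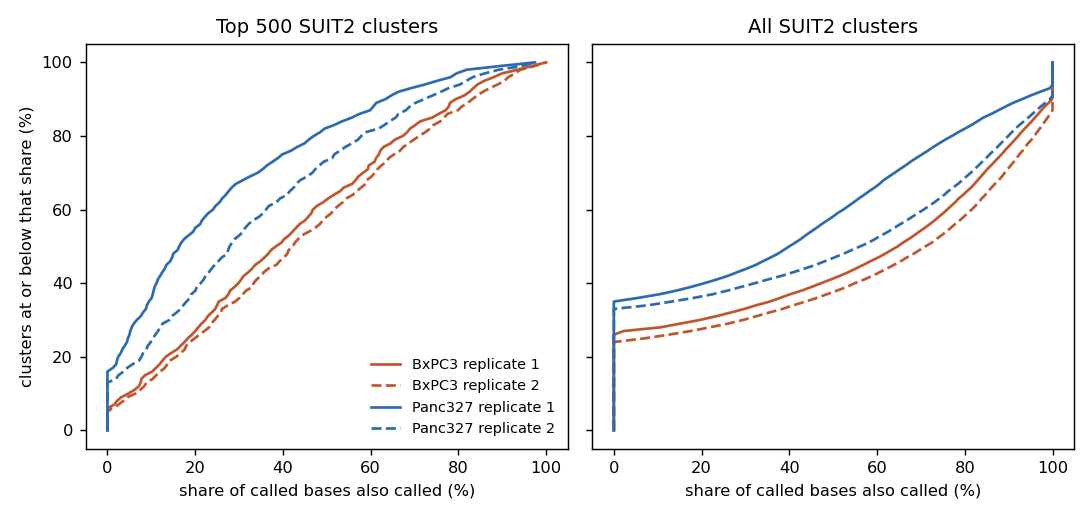
Cumulative share of clusters (y axis, %) against the share of a cluster's called bases that another library also calls (x axis, %), for the top 500 SUIT2 clusters (left) and all 17826 (right); lines are the 4 other libraries. In the top 500 the median cluster stands at 38.4% and 42.3% in BxPC3 and at 16.4% and 27.9% in Panc327. In the top 500, 29 clusters stand at 0 in both BxPC3 libraries and 53 in both Panc327 libraries.

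Where the other lines called a base in the spans, SUIT2 mostly called it too. Bases called in both BxPC3 libraries within the spans came to 4.60 Mb, and SUIT2 pieces held 92.5% of them. For Panc327 they came to 2.61 Mb, of which SUIT2 pieces held 88.7%. In the spans of all SUIT2 clusters these shares were 94.2% and 94.02%. Spans that begin and end on SUIT2 pieces favour such an overlap, so it is a description. Taken the other way, BxPC3 pieces held 77.0% of the bases called in both SUIT2 libraries within the spans of the BxPC3 top 500, and Panc327 pieces held 69.04% within those of the Panc327 top 500. In the map of rank 1, unbroken SUIT2 intervals ran on for long stretches, while BxPC3 and Panc327 had separate short intervals inside them. The 42.9 kb piece of rank 1 was called over 44.7% and 47.1% of its bases in BxPC3 and over 18.5% and 48.5% in Panc327.

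**Figure D3:**
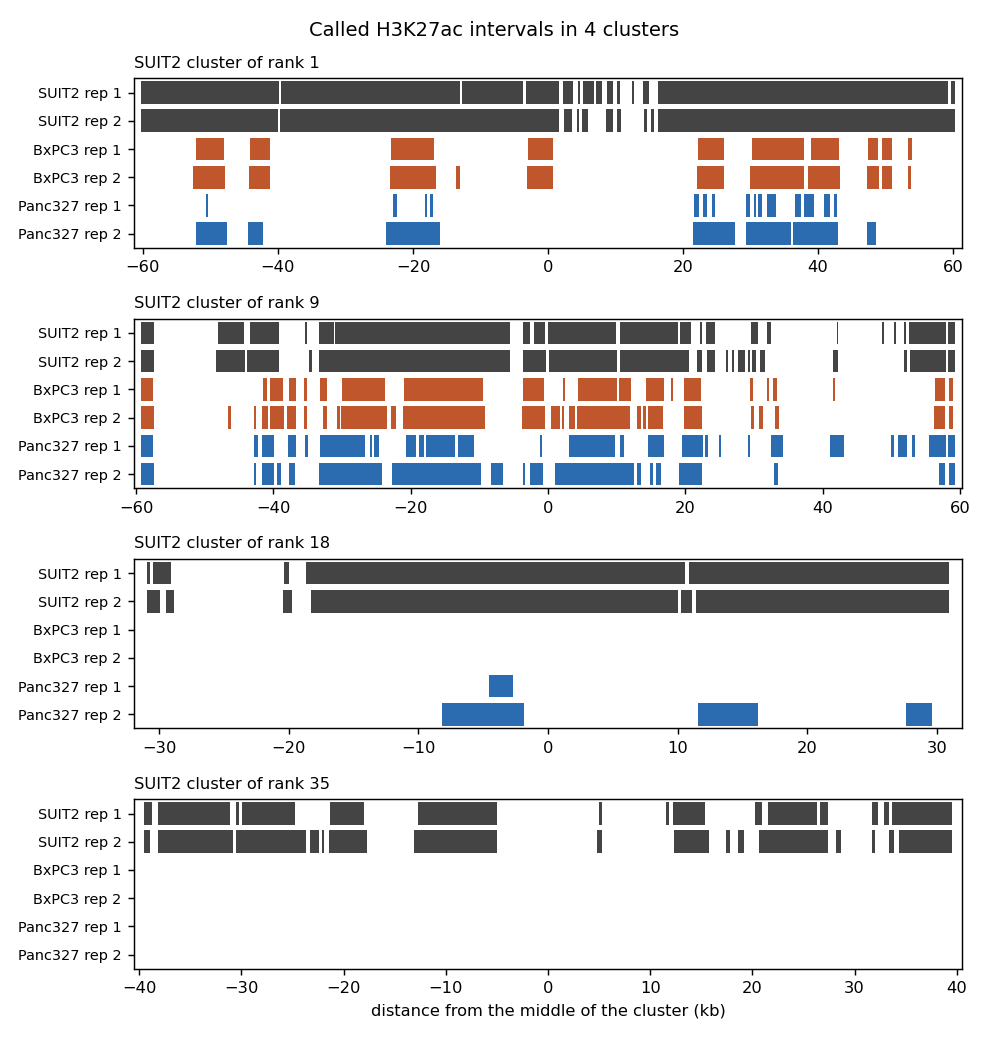
Called intervals of the 6 libraries (rows) across the SUIT2 clusters of ranks 1, 9, 18 and 35, as distance from the middle of the cluster (kb). Rank 1 holds short BxPC3 and Panc327 intervals inside long SUIT2 ones, rank 9 is called widely in all 6 libraries, rank 18 has none in BxPC3, and rank 35 has none in either other line.

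More clusters had their strongest SUIT2 positions called in the other lines than had most of their bases called there. The strongest summits of both SUIT2 libraries lay in called bases of all 4 other libraries in 327 of the 500 clusters (65.4%), against 53.4% of all SUIT2 clusters. These summits were called in both BxPC3 libraries in 407 clusters (81.4%), against 68.3% of all and 80.2% of the next 500. In both Panc327 libraries they were called in 337 (67.4%), against 56.3% of all and 65.0% of the next 500. In 69 clusters (13.8%) no other library called both summits, against 23.6% of all and 14.8% of the next 500. By contrast, at least 50% of the bases were called in both BxPC3 libraries in 186 clusters (37.2%). This compares with 58.1% of all and 44.2% of the next 500. For both Panc327 libraries it was 77 clusters (15.4%), against 38.1% of all and 21.2% of the next 500. A cluster can thus hold a summit position common to the 3 lines and still be mostly uncalled outside SUIT2.

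The other lines also had peaks of their own in most spans. BxPC3 had a summit in 467 and 471 of the 500 spans in replicates 1 and 2, and Panc327 in 416 and 432. The highest such fold had a median at percentiles 88.9 and 91.2 of the BxPC3 lists and at percentiles 87.1 and 85.9 of the Panc327 lists. A longer span has more room for a summit, so these counts are not set against those of all clusters. The strongest BxPC3 summit lay within 250 bp of a strongest SUIT2 summit in 252 and 267 clusters, or 54.0% and 56.7% of those with a BxPC3 summit, against 80.1% and 80.7% over all SUIT2 clusters. For Panc327 this was so in 214 and 193 clusters, or 51.4% and 44.7%, against 75.5% and 73.3%. Most of all SUIT2 clusters have 1 piece and so fewer summits to choose from, and the gap was not tested.

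Within the clusters, pieces under 1 kb had the lowest share of bases called in each other library. Of these pieces, 878 (74.7%) had no base called in any other library. This was so for 386 (40.4%) of the pieces of 1 to 3 kb, 182 (19.6%) of those of 3 to 10 kb and 19 (7.85%) of those of at least 10 kb. By bases, pieces under 1 kb were called over 15.5% and 16.9% in BxPC3 and 13.2% and 14.2% in Panc327. Pieces of 1 to 3 kb were called over 36.8% and 39.8% in BxPC3 and 27.9% and 33.1% in Panc327. Pieces of 3 to 10 kb reached 42.0% and 45.1% in BxPC3 and 25.1% and 33.7% in Panc327, and pieces of at least 10 kb 38.8% and 41.2% in BxPC3 and 20.1% and 29.8% in Panc327. Above 1 kb the shares did not go up steadily with width. In Panc327 replicate 1 they went down, and pieces of at least 10 kb lay below those of 3 to 10 kb in all 4 libraries. A longer piece has more room to meet a called base, so the counts of pieces with none are a description. The same shares over all SUIT2 pieces are not given here, so the pattern by width is not shown to be particular to these clusters.

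Among the 20 widest clusters, ranks 8, 9, 17 and 19 stood above the rest in BxPC3. Rank 9 was called over 56.5% and 64.3% of its bases in BxPC3 and 52.2% and 66.6% in Panc327, and it met the clusters of rank 3 in BxPC3 and rank 4 in Panc327. Rank 17 was called over 68.3% and 76.0% in BxPC3 and over 29.5% and 64.6% in Panc327, so the Panc327 libraries disagreed on it. Rank 19 was called over 63.7% and 71.1% in BxPC3 and 35.4% and 34.7% in Panc327. Rank 8 was called over 59.6% and 59.0% in BxPC3 and 28.8% and 25.4% in Panc327, and it met the cluster of rank 2 in BxPC3.

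Others of the 20 were little called elsewhere, and those given here are examples chosen after their values were seen. Ranks 11, 13 and 20, which are not among these examples, also stood below rank 3 in BxPC3. Rank 12 was called over 11.2% and 11.7% in BxPC3 and over 0% in both Panc327 libraries. Rank 16 was called over 10.5% and 13.1% in BxPC3 and 4.6% and 10.9% in Panc327. Rank 3 was called over 19.9% and 23.02% in BxPC3 and over 2.8% and 19.97% in Panc327. Rank 18 was called over 0% in both BxPC3 libraries and over 3.6% and 26.0% in Panc327. Lost DNA in BxPC3 was not tested there.

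**Figure D4:**
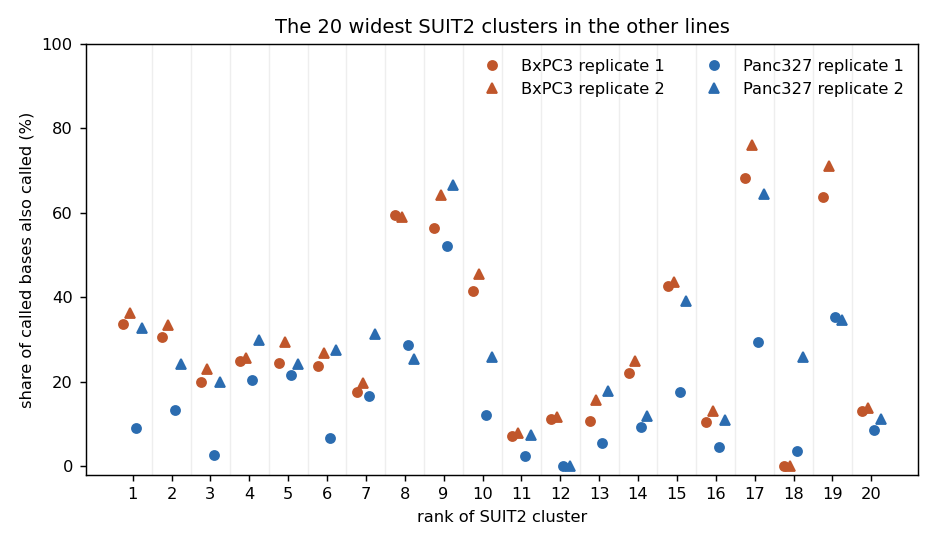
Share of called bases also called in each other library (y axis, %) for the 20 widest SUIT2 clusters by rank (x axis); each point is a library. Ranks 8, 9, 17 and 19 lie above 56% in both BxPC3 libraries, and rank 18 lies at 0% in both.

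Clusters that every other library called over at least 50% of the bases numbered 72, or 14.4% of the 500, against 34.6% of all SUIT2 clusters and 19.6% of the next 500. Without Panc327 replicate 1 the count was 114, and leaving out a BxPC3 or Panc327 library can only keep or raise it. Their median was 17.4 kb of called bases in 6 pieces, with 47.1% of the span called. Chromosome 19 held 14 of the 72 and chromosome 17 held 11, while these chromosomes held 26 and 30 of the 500. How many of all SUIT2 clusters on these chromosomes met the rule is not given here. The 10 clusters with the highest lowest share included 5 on chromosome 19.

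The highest was rank 413, on chromosome 19 from 42745708 to 42789217, a cluster of 5 pieces and 14.4 kb. It was called over 98.6% and 100% of its bases in BxPC3 and over 97.5% and 96.3% in Panc327. Next came rank 499 on chromosome 17, called over 89.6% and 93.4% in BxPC3 and 89.4% and 95.8% in Panc327. Rank 310 on chromosome 5 from 180610874 to 180651704 was called over 86.4% and 96.1% in BxPC3 and 93.1% and 97.4% in Panc327. The others lay on chromosome 11 at rank 154, from 118777939 to 118810107, and rank 342, from 63992805 to 64020404; on chromosome 16 at rank 459, from 685331 to 740704; and on chromosome 19 at rank 178, from 12876963 to 12917899, rank 272, from 39880852 to 39904914, rank 470, from 59054565 to 59088044, and rank 473, from 56135562 to 56169048. Shares in these 10 clusters were at least 79.2% in every other library. Among them, ranks 154 and 178 held over 20 kb and 8 lay past rank 250. This holds for the 10 picked by their lowest share. Of the 72, 29 lay among the first 250 clusters.

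Clusters called over under 10% of their bases in each of the 4 other libraries numbered 51, or 10.2% of the 500, against 20.2% of all SUIT2 clusters and 10.4% of the next 500. Their median was 20.2 kb of called bases in 5 pieces, with 65.1% of the span called. The highest fold in them had a median of 74.4 and 78.9 in SUIT2 replicates 1 and 2, and that in the 72 shared clusters 111 and 112. No base at all was called elsewhere in 17 clusters (3.40%), against 19.3% of all SUIT2 clusters, of which 67.3% have 1 piece.

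The widest of the 51 was rank 11 on chromosome 10, called over 7.3% and 7.9% of its bases in BxPC3 and 2.5% and 7.4% in Panc327. Rank 22 on chromosome 9 from 21770867 to 21839002 (45.2 kb) was called over 0% in both BxPC3 libraries and over 4.0% and 9.9% in Panc327. For rank 22 too, lost DNA in BxPC3 was not tested. Rank 30 on chromosome 10 from 32291201 to 32368013 (41.4 kb) was called over 5.5% and 7.2% in BxPC3 and 3.3% and 5.8% in Panc327. Rank 35 on chromosome 7 from 117293393 to 117372361 was the widest with no base called in any other library, with 38.9 kb in 14 pieces.

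Rank 56 on chromosome 3 from 139006597 to 139048955 likewise had no base called elsewhere. It held 33.7 kb in 5 pieces, the widest of them 26.8 kb. The others among the 10 widest were rank 46 on chromosome 2 from 113956163 to 114007622, rank 55 on chromosome 11 from 75022794 to 75064446, rank 68 on chromosome 5 from 81680157 to 81723980, rank 69 on chromosome 11 from 76777156 to 76824729 and rank 72 on chromosome 9 from 4487722 to 4541767. Their shares lay between 0% and 9.2%.

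Some of these clusters were neighbours. Within the 500, 113 clusters had another within 100 kb, in 62 pairs. On chromosome 7, rank 126 (from 117219827 to 117263047, 25.5 kb in 14 pieces) ended 30.3 kb before rank 35, and no base of either was called in any other library. On chromosome 9, ranks 18, 268 and 22 followed each other between 21532340 and 21839002, with gaps of 76.0 and 79.4 kb. All 3 were called over 0% in both BxPC3 libraries. Whether BxPC3 holds this DNA was not tested, so lost DNA there cannot be told apart from a missing mark. Rank 268 was called over 0% in Panc327 replicate 1 and 42.6% in replicate 2. On chromosome 5, rank 416 ended 17.7 kb before rank 68. It was called in no other library, and rank 68 was called over 0% and 3.3% in BxPC3 and 0% in both Panc327 libraries.

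BxPC3 and Panc327 could be set against each other cluster by cluster, which the choice of clusters did not use. The share was higher in both BxPC3 libraries than in both Panc327 libraries in 307 clusters (61.4%). This compares with 37.6% of all SUIT2 clusters and 54.8% of the next 500. The share was higher in both Panc327 libraries in 38 (7.6%), against 9.44% of all and 50 clusters of the next 500. In 155 of the 500 clusters the lines' libraries overlapped or tied. A cluster with no base called in any other library ties, as did 19.3% of all SUIT2 clusters and 3.4% of the 500. The gaps to all clusters were not tested. The BxPC3 libraries differed by a median of 2.41 percentage points in a cluster's share, and by over 10 points in 10 clusters. The Panc327 libraries differed by a median of 7.07 points, and by over 10 points in 196 clusters. Panc327 replicate 2 had the higher share in 330 clusters and replicate 1 in 117.

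**Figure D5:**
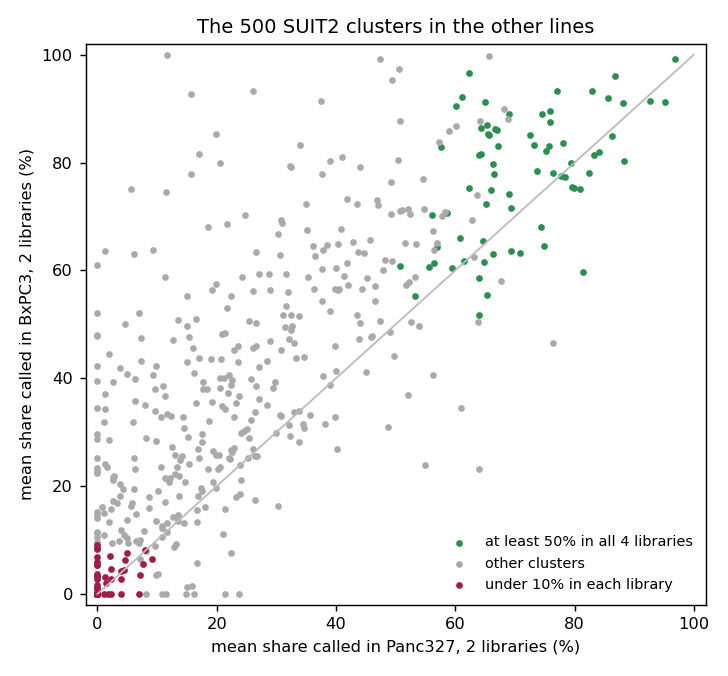
Mean share of called bases also called in BxPC3 (y axis, %) against that in Panc327 (x axis, %), each a mean of 2 libraries, for the 500 SUIT2 clusters; the line marks equal shares. Above the line lie 391 clusters; the 72 called over at least 50% in every library lie at the upper right and the 51 under 10% in each at the lower left.

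Sharp splits between the lines were rare. At least 50% was called in both BxPC3 libraries and under 10% in both Panc327 libraries in 2 clusters (0.400%). This was so in 4.73% of all SUIT2 clusters and 1.0% of the next 500. The 2 clusters were rank 77 on chromosome 13 from 73896163 to 73944840 and rank 356 on chromosome 2 from 188405188 to 188420561. Rank 77 was called over 63.2% and 64.1% in BxPC3 and 0% and 2.5% in Panc327. Rank 356 was called over 59.6% and 62.4% in BxPC3 and 0% in both Panc327 libraries. The reverse split was found in 0 clusters, against 1.55% of all and 0% of the next 500. Most of all SUIT2 clusters have 1 piece, and the gaps to all clusters were not tested. Among the clusters with the higher share in Panc327, chosen after their values were seen, rank 453 on chromosome 17 from 35275761 to 35307888 was called over 24.7% and 21.6% in BxPC3 and over 65.7% and 62.4% in Panc327. Rank 329 on chromosome 21 from 43170134 to 43189722 was called over 0% in both BxPC3 libraries and over 19.6% and 28.0% in Panc327. At rank 329, lost DNA in BxPC3 was not tested. No base was called in either BxPC3 library in 29 clusters (5.80%), against 24.0% of all SUIT2 clusters and 8.4% of the next 500. For either Panc327 library this was 53 clusters (10.6%), against 29.9% of all and 13.0% of the next 500. A cluster of more bases has more room for a called one, so these shares were not tested against each other.

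The widest clusters of the other lines, built by the same rule, were shorter, and so were their lists. The SUIT2 lists covered 60.1 and 63.3 Mb, against the lengths given above for BxPC3 and Panc327. The top 500 held 19.8% of the bases in clusters in SUIT2, 15.9% in BxPC3 and 19.7% in Panc327. The top 500 of SUIT2 ended at 13.1 kb, that of BxPC3 at 9.96 kb and that of Panc327 at 6.62 kb, and the widest cluster held 108 kb in SUIT2, 50.9 kb in BxPC3 and 36.6 kb in Panc327. Of the SUIT2 top 500, 186 (37.2%) shared at least 1 base called in both BxPC3 libraries with a BxPC3 top 500 cluster, and these were 189 (37.8%) of the BxPC3 list. With Panc327 the overlap was 143 (28.6%) of the SUIT2 list and 147 (29.4%) of the Panc327 list. When the shared bases had to reach 50% of the called bases of the SUIT2 cluster, 135 met the BxPC3 list and 62 the Panc327 list. By a single shared base, both other lists were met by 115 SUIT2 clusters and neither by 286. A cluster of more bases has more room for a shared one. The same shares over all SUIT2 clusters are not given here, so these overlaps are not shown to be particular to the top 500.

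Most clusters outside another line's top 500 still held bases called there. A base called in both BxPC3 libraries, but outside its top 500, was found in 279 SUIT2 clusters, and none in 35. For Panc327 these counts were 258 and 99. Of ranks 1 to 100, 53 met the BxPC3 top 500 and 34 the Panc327 top 500, and of the last 100 of the 500, 32 and 30 did. All these counts need only 1 shared base, for which a wider cluster has more room. They are a description, and the same shares over all SUIT2 clusters are not given here.

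A set of 16 of the 500 SUIT2 clusters met, by at least 1 shared base, a cluster among the first 50 of both other lines. Rank 9 was the widest of them. Rank 21 on chromosome 7 from 27134830 to 27252309 (45.4 kb) met rank 21 in BxPC3 and rank 16 in Panc327. Rank 34 on chromosome 11 (38.9 kb) met ranks 37 and 25, with 60.0% and 64.9% of its bases called in BxPC3 and 48.6% and 77.6% in Panc327. Rank 73 on chromosome 17 from 8021250 to 8131002 (30.9 kb in 19 pieces) met rank 19 in BxPC3 and the widest cluster of Panc327. This group was picked with its values in view, and the same count over all SUIT2 clusters is not given here.

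The 500 clusters lay on all 23 chromosomes used. Chromosome 1 held 45, chromosome 2 held 44 and chromosome 12 held 43. As a share of the SUIT2 clusters of a chromosome, chromosomes 12 and 20 had the most in the 500, 4.66% and 4.49%, and chromosomes X and 8 the fewest, 1.13% and 1.34%, against 2.80% over all. Of the 51 clusters barely called elsewhere, chromosomes 2, 5 and 10 held 6 each, out of their 44, 19 and 29 of the 500. Chromosomes 15, 19, 20 and X held 0, out of 18, 26, 20 and 6. Over the whole 500 the share was 10.2%. These are counts without a test, and the number barely called elsewhere among all SUIT2 clusters of each chromosome is not given here.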

How the data were processed

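The 6 H3K27ac libraries each had a deposited list of narrowPeak peaks, called per library; MACS2, Bowtie 1.1.1 and bcl2fastq 1.8.4 with the hg19 build are named in the submitters' processing notes, and the MACS2 settings are not given in the sources used here. The 6 input libraries entered through the background of the caller and had no list of their own. The deposited fold of a peak is the authors' ratio of pile-up to local background, a value of that peak, used to find the strongest summit in a cluster, to rank clusters in an alternative and to recover the background. The −log10 of the p-value and of the q-value are as the authors deposited them, used for the background and for filters. The deposited score column was not used, and the deposited summit column gave the summit positions. Read depth was not given in the lists and is unknown here.

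Intervals of SUIT2 replicates 1 and 2 were intersected, joined within 12500 bp and ranked by called bases. On simulated intervals the 174 clusters were the same as in base-by-base arrays, and bedtools 2.31.1 also gave 17826 SUIT2 clusters. A cluster's share in a library is the percentage of its called bases that the library also calls. The background was solved from fold = (pile-up + 1)/(background + 1) and a Poisson tail for p, which returned whole reads within 0.001 of the −log10 p for 99.9% of the peaks of each SUIT2 library. BxPC3 and Panc327 were compared by the exact permutation test over 4 libraries. The call rules were counted in the 500 and over all SUIT2 clusters. The tools were scipy 1.17.1, pandas 2.3.3, numpy 2.4.6 and, for figures, matplotlib 3.10.9, under Python 3.11.15.

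The members, thresholds and lists were chosen with earlier results of these data known. Clusters named are the 20 widest, the 10 widest barely called elsewhere, the 10 with the highest lowest share, the 3 ranks either side of the threshold and the cluster with the most pieces or summits; others are said to be chosen after their values were seen, or illustrate a count. Lists of marker genes had been written for naming clusters. They were not used, since they need gene positions on hg19 and the gene table at hand is on GRCh38.p14, so no gene, sequence or marker result is given and the labelled lines were not checked against markers. The replicate number gives no pairing in the labels.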

Additional observations from a re-analysis of the deposited data

How the results depend on the processing

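Of 105 recomputed values of 7 results, 85 stayed within the limits used here, 20 moved past them and none reversed. Some of the 85 could not move. Leaving out a library of 1 line cannot change the share or the top 500 overlap of the other line. Without a BxPC3 or Panc327 library, the counts called over at least 50% and under 10% can only stay or rise. Fewer libraries must then meet the rule. The limits were 1.5 times for a count, 1 SD over the libraries for a share, and the sign and the side of the p threshold for the difference. Since p could not pass its threshold, only a change of sign would have counted for the difference. The share limits were 1.96 points for BxPC3 and 5.69 for Panc327, so like shifts could be labelled differently. With pieces joined within 25 kb, the BxPC3 share of 44.0% counted as moved and the Panc327 share of 31.6% did not. Within the limits, the count called over at least 50% everywhere, 72, still ran between 56 and 106. It was 99 for clusters ranked by fold times bases. The count barely called elsewhere, 51, ran between 34 and 68. The difference of BxPC3 minus Panc327 was positive under every alternative run, and none could bring its p under the threshold. Leaving out each library in turn gave 8.84 to 16.9 points for it, 37.2 to 41.5% for the BxPC3 share, 23.2 to 31.3% for the Panc327 share, 60 to 114 clusters called over at least 50% in every remaining library (114 without Panc327 replicate 1, against 72), 52 to 60 clusters barely called elsewhere, 180 to 186 clusters met in the BxPC3 top 500 and 138 to 160 in the Panc327 top 500. With the replicate block, the differences within replicate numbers 1 and 2 were 15.5 and 10.2 points, a mean of 12.9 (exact sign-flip permutation p = 0.5, the smallest it can give); the labels do not say that a number pairs libraries. Across the 500 clusters, the deviations of same-numbered BxPC3 and Panc327 libraries had r = 0.17, a description over clusters of 4 libraries.

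The BxPC3 share, 40.1%, was 44.0% with pieces joined within 25 kb, 36.1% with bases called in either SUIT2 library, 43.9% with clusters ranked by fold times bases, 37.6% with 250 clusters and 42.2% with 1000. With 250 clusters, 29 were called over at least 50% everywhere, 30 barely elsewhere, 79 met the BxPC3 list and 57 the Panc327 list of that length; with 1000 these were 170, 103, 414 and 340, changes that follow in part from the length of the list. At thresholds of 75% and 5% the 2 counts were 16 and 29, and at 25% and 20% they were 182 and 106. When shared bases had to reach 50% of a cluster, 62 met the Panc327 top 500. For the other moved values the cause was not tested. Leaving out pieces near transcript starts was not run, since no gene positions on hg19 were at hand. Depth and the DNA content of the lines were unknown, so an uncalled base is not shown to lack the mark.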
